A study of Mus musculus with 5 samples.

Results

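Transcripts of 10 heat shock genes were followed in mouse hepatocytes over a fast of 24 h. The genes were taken by symbol from the 32285 genes of the count table: Hspa8, Hspa1a and Hspa1b of the HSP70 family, Hsph1 of the HSP110 family, Dnajb1 of the HSP40 family, Hsp90aa1 and Hsp90ab1 of the HSP90 family, the small heat shock gene Hspb1, and the mitochondrial chaperonin pair Hspd1 and Hspe1. All 10 symbols were found once. The cells were 28644 of 50000 deposited barcodes, chosen as hepatocytes by the number of unique molecular identifiers (UMIs, each counting 1 captured transcript molecule), the number of genes, a mitochondrial share of 2 to 30% of UMIs, and the lack of marker transcripts of other liver cell types.

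The livers were those of male wild-type (WT) C57BL/6J mice on normal chow. For 3 days all mice fasted 16 h overnight and ate for 8 h in the day, and on the last day their water held 20% sucrose. The fed group (0 h) was sampled at clock hour 13, after 4 h of feeding, and the other groups had lost food and sucrose water at that hour and were sampled 4, 8, 16 and 24 h later, at clock hours 17, 21, 5 and 13. Isolated hepatocytes of each group gave 1 droplet library of transcript 3′ ends (10x Chromium). Fasting time and clock hour therefore cannot be told apart, other than between 24 h and 0 h, which share hour 13 on successive days. Sources used here gave neither the number of animals behind a library nor the light cycle.

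Heat shock proteins are molecular chaperones, which bind unfolded stretches of other proteins and help them to fold, assemble or be degraded. HSP70 proteins work in cycles of ATP binding and hydrolysis that J-domain proteins start and exchange factors such as HSP110 complete, while HSP90 takes over late folding steps of steroid receptors and kinases. Heat shock factor 1 (HSF1) raises the inducible members through heat shock elements, inverted repeats of the bases GAA, and in the liver some heat shock genes are known to follow body temperature and feeding over the day.

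Promoter windows of RefSeq (GRCm38.p6), from 250 bases before to 50 after an annotated start, were on hand for 7 of the 10 genes, in 10 windows. They were searched for facing repeats spelled GAANNTTC or TTCNNGAA, each its own reverse complement, and for the triple repeat GAANNTTCNNGAA with its reverse complement TTCNNGAANNTTC, which contains both pairs. At least 1 pair was found in 7 of the 10 windows, against 15.1% of all 32851 windows, and a triple in 4 of the 10, against 0.603% of all windows. These windows are not independent: those of Hspa1a and Hspa1b are nearly identical, the pair of Hsph1 windows overlaps, and Hspd1 and Hspe1 share the same sites. The sequences below are shown because the genes they precede, or the site they share, come back in the results. They run 5′ to 3′, with the repeat units in capitals. The Hspa1a stretch is at chr17:34972207-34972366 and the Hspa1b stretch at chr17:34959289-34959448, both on the minus strand, and the Hspb1 stretch at chr5:135887759-135887858 on the plus strand, all 3 outside annotated exons. The Hsph1 stretch is at chr5:149636351-149636380 on the minus strand. Its pair, at 149636362 to 149636369, lies in an annotated exon of Hsph1. The 5′ end of the stretch runs past the annotated gene, which ends at 149636376. The last site, chr1:55088053-55088082, is written on the plus strand of Hspe1 and lies in an annotated exon of Hspd1, which runs the other way.
Hspa1a: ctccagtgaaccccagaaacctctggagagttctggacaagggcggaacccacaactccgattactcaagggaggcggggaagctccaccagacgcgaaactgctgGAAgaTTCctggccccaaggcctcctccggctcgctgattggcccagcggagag
Hspa1b: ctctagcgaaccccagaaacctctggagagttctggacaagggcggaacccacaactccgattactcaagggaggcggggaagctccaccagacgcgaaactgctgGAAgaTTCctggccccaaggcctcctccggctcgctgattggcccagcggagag
Hspb1: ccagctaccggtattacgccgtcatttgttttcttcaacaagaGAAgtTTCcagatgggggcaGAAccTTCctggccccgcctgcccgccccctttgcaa
Hsph1: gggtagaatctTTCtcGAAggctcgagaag
Hspd1 and Hspe1: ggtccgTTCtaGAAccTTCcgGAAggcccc

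The promoter windows of Hspa1a and Hspa1b matched at 296 of 300 positions (98.7%). The 4 substitutions from Hspa1a to Hspa1b, counted from 1 at the 5′ end of the window, were C44T, T47C, T249G and C276T, of which the first pair lies in the printed stretches. The shared Hspd1 and Hspe1 site holds 4 repeat units in a row, and counts as a triple for both genes. The triple of Hsph1 lies after its start and is not printed. No match of these spellings was found in either window of Dnajb1. A match is a description of the letters, and no binding was measured.

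The libraries differed in ways that bear on every value. Nuclear-encoded UMIs of the hepatocytes summed to between 33473915 and 45506263 per library, and 1 UMI was worth 0.0220 to 0.0299 CPM (UMIs of a gene per 1000000 nuclear UMIs). The hepatocytes numbered 7732, 4561, 2705, 9087 and 4559 in the order 0, 4, 8, 16 and 24 h, with median UMI counts of 5478, 12122, 15055, 4404 and 9022 and median mitochondrial shares between 9.80% (8 h) and 19.1% (4 h). The 8 hepatocyte markers summed to between 81067 and 111986 CPM, led by Alb, and none was at 0. Endothelial markers summed to 50.9, 5.10, 5.65, 13.1 and 11.7 CPM and Kupffer cell markers to 11.6, 0.198, 0.0592, 1.52 and 0.613 CPM, so that the fed library held the most of both. Stellate cell markers summed to between 0.989 and 9.90 CPM and lymphocyte markers to at most 2.67 CPM. The cholangiocyte, neutrophil and erythroid lists summed to 21.3 to 76.1, 53.9 to 249 and 24.5 to 67.0 CPM, mostly from 1 gene each (Sox9, G0s2 and Alas2), while Cftr, Retnlg and Slc4a1 were at 0 in at least 4 libraries. Of the barcodes past the UMI and gene filters, 21.7, 53.5, 17.3, 2.50 and 54.0% had under 2% mitochondrial UMIs and were left out. Libraries shared 259 of 49740 barcode sequences. With 1 library per time no spread between animals could be estimated and no test was made. The 95% intervals below cover counting error only, and a difference between 2 libraries describes those libraries.

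The fed library held the highest level of 7 of the 10 genes. Hspd1 was highest at 4 h, and Hspa1a and Hspa1b at 16 h. The lowest level was at 16 h for 4 genes (Hspa8, Hsp90ab1, Hspd1 and Hspe1) and at 24 h for the other 6. The 10 genes together stood at 3916 CPM in the fed library, then at 2755, 2461, 1820 and 2306 CPM, a sum in which Hsp90ab1, Hspa8, Hspd1 and Hspe1 weigh most.

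**Figure D1:**
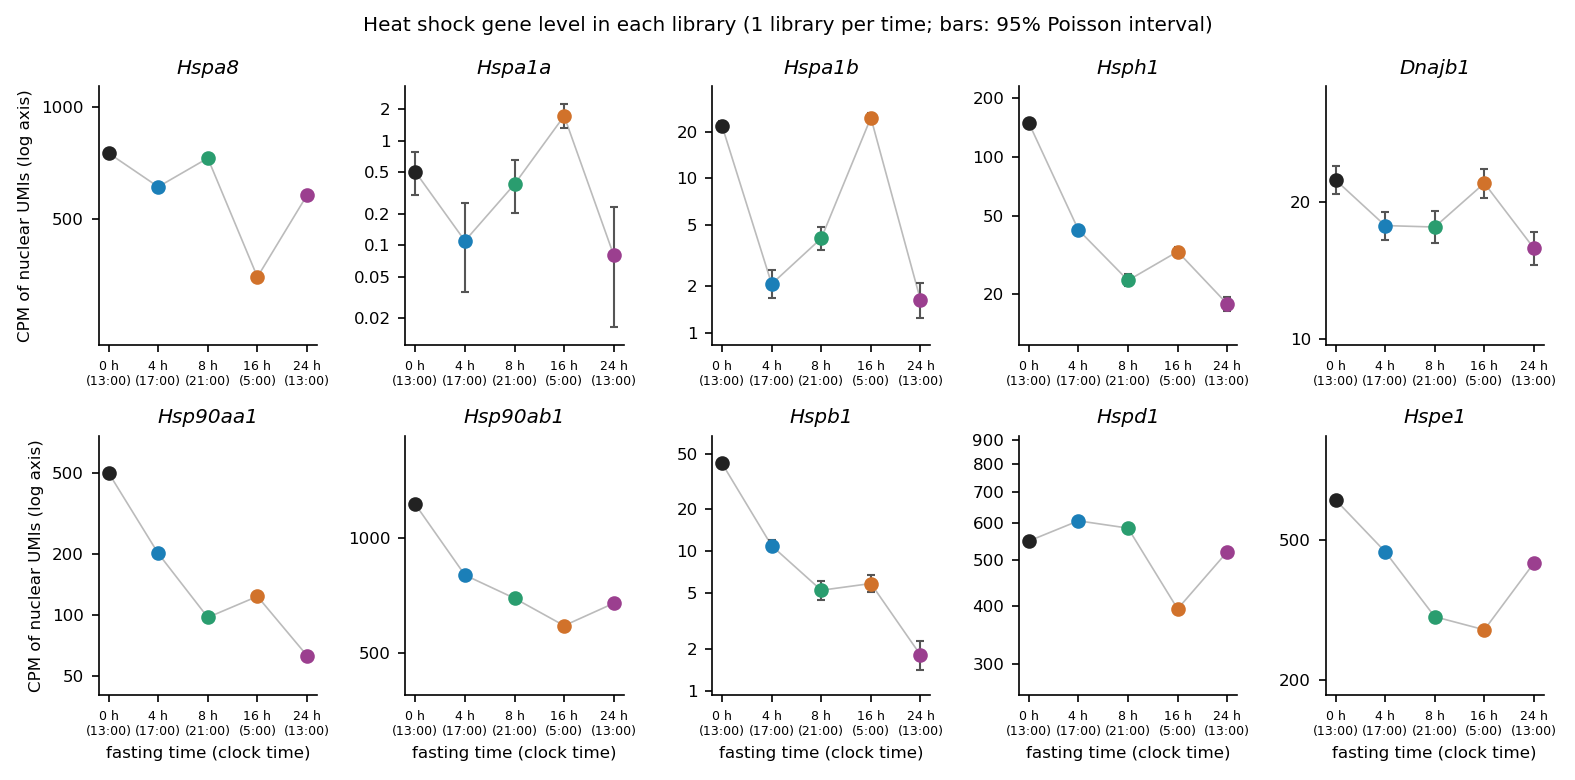
CPM of nuclear UMIs (log axis) of each heat shock gene in the 5 libraries, by fasting time and clock hour, with the 95% Poisson interval as a bar where it is larger than the point. Hsp90aa1, Hsph1 and Hspb1 are highest in the fed library and lowest at 24 h, Hspa1a and Hspa1b are highest at 16 h, and Dnajb1 and Hspd1 stay within a narrow range.

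For the comparison with the fed library a gene was called at a difference of 2-fold or more with at least 50 CPM in either library, a rule that Hspa8, Hsph1, Hsp90aa1, Hsp90ab1, Hspd1 and Hspe1 could meet at every time. The other 4 genes were under 50 CPM in all libraries. Hsph1 reached 50 CPM in the fed library only. It passed the minimum through that library alone, and at its fasted levels could be called lower but not higher. Hsph1 is 1 of the genes called lower at each time, and enters the medians below. Of the 6 genes 2, 3, 5 and 2 were called lower in time order, and 0 were called higher at any time. Over all genes tested, 5.91, 11.7, 4.08 and 10.6% were called lower in the same 4 comparisons, and 5.81, 7.97, 3.34 and 6.72% were called higher. Those shares depend on the scaling: at 4 h 171 genes were called higher and 174 lower, but 217 and 124 with libraries scaled by the trimmed mean of M-values (TMM), at 8 h 240 and 354 against 337 and 259, and at 24 h 200 and 314 against 254 and 260. TMM moved the median of all genes to 0.14, 0.17 and 0.11 at these times. The median log2 ratio of the 6 genes to fed was -0.55, -0.96, -1.17 and -0.73 in time order, beside -0.027, -0.039, 0.0048 and -0.026 over all genes tested. Counting all 10 genes without the CPM minimum, 9, 9, 8 and 10 were below fed in time order, beside 60.2, 58.4, 53.6 and 56.9% of all genes with at least 1 UMI in both libraries. The 4 comparisons share the fed library, so that they are not independent of each other.

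Successive fasted libraries were compared by the same rule, which Hspa8, Hsp90aa1, Hsp90ab1, Hspd1 and Hspe1 could meet. From 4 to 8 h 1 of these 5 was called lower (Hsp90aa1) and 0 higher, where 2.22% of all genes were called lower and 1.14% higher. From 8 to 16 h 1 of 5 was called lower (Hspa8) and 0 higher, where 9.74% of all genes were called lower and 11.3% higher. From 16 to 24 h 0 of 5 were called, where 6.99% of all genes were called lower and 7.52% higher, and the log2 ratios were 0.73 for Hspa8, 0.63 for Hspe1, 0.40 for Hspd1, 0.20 for Hsp90ab1 and -0.97 for Hsp90aa1. Of the genes under 50 CPM, Hspb1 was 2.08-fold lower at 8 h than at 4 h and 3.25-fold lower at 24 h than at 16 h, and Hspa1b was 6.04-fold higher at 16 h than at 8 h and 15.2-fold lower at 24 h than at 16 h. Hspa1a, on 3 to 58 UMIs, had log2 ratios of 1.81, 2.17 and -4.44 over the 3 steps.

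**Figure D2:**
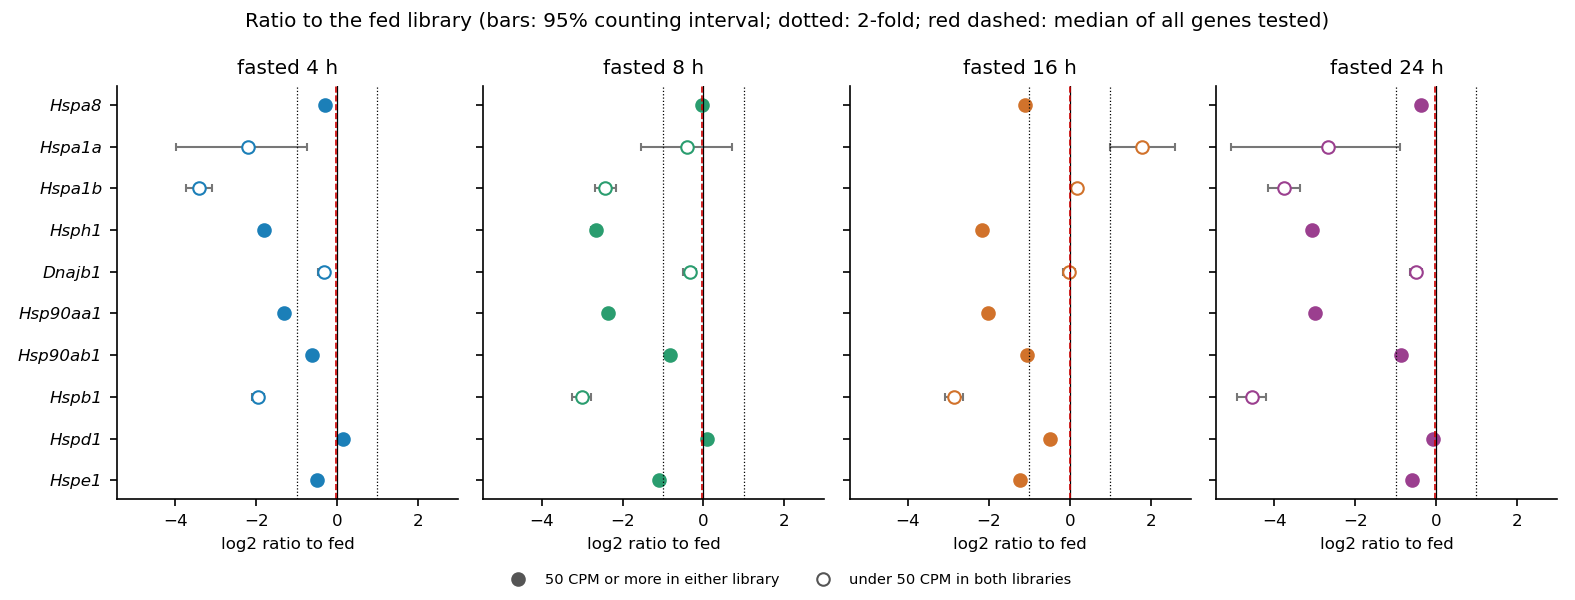
Log2 ratio of each fasted library to the fed library for the 10 genes, with 95% counting intervals as bars. Filled points have 50 CPM or more in either library, dotted lines mark 2-fold and the red dashed line the median of all genes tested. Hsph1 and Hsp90aa1 lie beyond 2-fold lower in all 4 panels, and Hspd1 lies inside 2-fold in all 4.

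The HSP90 pair parted. Hsp90aa1 (chromosome 12, 110690605 to 110702728, minus strand, GRCm38) encodes the stress-inducible cytosolic HSP90. It stood at 501 CPM in the fed library and at 201, 97.4, 124 and 63.2 CPM at 4, 8, 16 and 24 h. The fed level lay above all others, the 16 h level above that at 8 h, and the 24 h level was the lowest. Against fed, the log2 ratios of the 4 fasted libraries were -1.32, -2.36, -2.02 and -2.99, the last (-3.05 to -2.92) a level 7.92-fold lower at the same clock hour. After 4 h, the step to 8 h was the only one between successive libraries past 2-fold (log2 ratio -1.05).

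Hsp90ab1 (chromosome 17, 45567775 to 45573271, minus strand), the constitutive cytosolic HSP90, stood at 1229 CPM in the fed library and at 801, 696, 590 and 676 CPM later. Every fasted library lay below the fed one, and the ratio of the highest to the lowest fasted library was smaller than for Hsp90aa1. Its log2 ratio to fed was -0.62, -0.82, -1.06 and -0.86 in time order, past 2-fold at 16 h only.

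Hsph1 (chromosome 5, 149614287 to 149636376, minus strand), the HSP110 nucleotide exchange factor of HSP70, stood at 149 CPM in the fed library and at 42.5, 23.5, 33.0 and 17.9 CPM later. The order of the 5 libraries was that of Hsp90aa1. Against fed its log2 ratios were -1.81, -2.66, -2.17 and -3.06, the last with an interval of -3.17 to -2.94, and it was called lower at all 4 times, as Hsp90aa1 was. After each cell was thinned to 1000 nuclear UMIs, 12.6% of fed hepatocytes held an Hsph1 UMI (11.9 to 13.4%), against 1.32% at 24 h (1.01 to 1.69%). Without thinning the shares were 45.4 and 13.1%. Barcodes with endothelial markers in the fed library, at a median of 1801 nuclear UMIs against 4770 in its hepatocytes, held one in 4 of 55 (7.27%, 2.02 to 17.6%). The fed share lies within that interval and the 24 h share below it, so that the shares are not read as cells that express the gene, and the comparison rests on the summed level.

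Hspb1 (chromosome 5, 135887919 to 135889563, plus strand), a small heat shock protein that holds unfolded proteins and binds actin, showed the widest range among the genes with at least 50 UMIs in every library. It stood at 42.5 CPM in the fed library (40.5 to 44.7) and at 11.0, 5.27, 5.89 and 1.81 CPM later, where 8 h and 16 h did not differ beyond the counting interval. At 24 h it was 23.5-fold lower than fed (18.4 to 30.4), on 68 UMIs. At 4 h the log2 ratio was -1.96 in all hepatocytes and -0.62 in those with 2 to 15% mitochondrial UMIs. Other cells and depth move with this gene: the fed barcodes with endothelial markers held 123 CPM, and in the 4 h library hepatocytes with the fewest UMIs held 37.5 CPM against 8.45 CPM in those with the most. Their part in the result was not tested. The 24 h ratio, -4.55 on the log2 scale, was -3.93 without a lower mitochondrial limit and -3.97 with 2 to 15%. With a stricter removal of barcodes with other markers, chosen after seeing the data, the log2 ratio was -1.94 at 4 h and -4.53 at 24 h. The thinned share of fed hepatocytes with an Hspb1 UMI, 4.75%, lay within the interval of the endothelial-marker barcodes, 7.27% (2.02 to 17.6%), so that it is not read as a share of cells that express the gene.

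Among the HSP70 genes the constitutive Hspa8 (chromosome 9, 40800984 to 40810087, plus strand), which serves routine folding and the uncoating of clathrin vesicles, stood at 752, 610, 729, 348 and 579 CPM in time order. The 16 h library, at clock hour 5, was the lowest, 2.16-fold below fed (2.11 to 2.21) and 2.09-fold below 8 h. At 8 h the log2 ratio to fed was -0.045, which turned to 0.13 with TMM. At 24 h, the same clock hour as fed, it was -0.38, and -0.075 in hepatocytes with 2 to 15% mitochondrial UMIs. At 24 h Hspa8 stood at 745, 598 and 432 CPM in cells with the lowest, middle and highest mitochondrial share. In the fed library the same parts held 831, 716 and 727 CPM. The part of the mitochondrial share in the difference was not tested.

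The inducible pair lies 9951 bases apart on chromosome 17 (Hspa1a at 34969190 to 34972156 and Hspa1b at 34956436 to 34959238, both on the minus strand) and encodes nearly the same HSP70 protein, made on stress. Hspa1b stood at 21.9, 2.07, 4.08, 24.7 and 1.63 CPM in time order. The counting intervals of the highest and lowest levels were 23.0 to 26.4 CPM (16 h) and 1.24 to 2.09 CPM (24 h). The fed and 16 h libraries were high and the other 3 low, with 4 h and 24 h not separated by the counting interval. The fed library lay 10.6-fold above 4 h and 13.4-fold above 24 h, and 16 h lay 15.2-fold above 24 h (11.7 to 20.0). The log2 ratio of 4 h to fed was -3.40, and -4.13 in hepatocytes with 2 to 15% mitochondrial UMIs.

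Hspa1a was counted 19, 5, 13, 58 and 3 times in the 5 libraries, or 0.506, 0.110, 0.385, 1.73 and 0.0800 CPM. It was highest at 16 h, with a log2 ratio to fed of 1.78 there (1.01 to 2.61), and fed and 8 h did not differ beyond counting error. Both genes share 1636 of their 60-base windows, 56.3% of those of the Hspa1a transcript and 59.6% of those of Hspa1b, but 0 of the 441 windows in the last 500 bases, the end that 3′ libraries capture. Sources used here do not say how reads mapping to both copies were counted, so the summed level is given too: 22.4, 2.18, 4.47, 26.4 and 1.71 CPM.

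The sign of the difference in Hspa1b between 16 h and fed depended on the mitochondrial limit. The log2 ratio was 0.17 (0.033 to 0.32) in all hepatocytes and -0.24 in hepatocytes with 2 to 15% mitochondrial UMIs. Within the 16 h library Hspa1b stood at 13.8, 24.7 and 37.8 CPM in the parts of the cells with the lowest, middle and highest mitochondrial share. In the fed library the same parts held 22.6, 23.2 and 19.7 CPM. After thinning, 1.91, 0.198, 0.224, 2.53 and 0.263% of cells held an Hspa1b UMI in time order, and without thinning 8.95, 1.97, 4.66, 8.00 and 1.29%. Of the fed endothelial-marker barcodes 1 of 55 (1.82%, 0.0460 to 9.72%) held one, an interval that spans all 5 thinned shares, so that none is read as a share of cells that express Hspa1b.

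Immediate-early genes, transcription factors and phosphatases that respond within minutes to growth factors, stress or tissue dissociation, had their highest sums in the same pair of libraries. The 16 genes of that list summed to 737, 682, 460, 969 and 433 CPM in time order, and 1 of them, Fosb, was at 0 in the 8 h library. Egr1 stood at 39.2, 94.2, 17.8, 150 and 20.5 CPM, Dusp1 at 226, 101, 76.6, 184 and 64.9 CPM, Junb at 69.0, 44.5, 14.6, 107 and 23.7 CPM, and Jun at 46.9, 43.8, 25.6, 65.6 and 27.7 CPM. Egr1 was higher at 4 h than in the fed library and the list sum was 682 CPM there, where Hspa1b was near its lowest. Their part in the result was not tested.

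Dnajb1 (chromosome 8, 83608193 to 83612653, plus strand), the J-domain partner that delivers clients to HSP70, varied least of the 4 genes under 50 CPM. It stood at 22.3, 17.7, 17.6, 22.0 and 15.8 CPM, and its highest level was 1.41 times its lowest. The fed and 16 h libraries were not separated by the counting interval, nor were 4 h and 8 h, or 8 h and 24 h. The log2 ratio to fed was -0.33, -0.34, -0.024 and -0.50, and that at 16 h was 0.084 when cells were weighted equally.

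The chaperonin genes Hspd1 (HSP60, the barrel in which matrix proteins fold) and Hspe1 (HSP10, its lid) stand head to head on chromosome 1 (Hspd1 at 55077835 to 55088243 on the minus strand, Hspe1 at 55088132 to 55091307 on the plus strand), and their annotated ends overlap by 112 bases. Hspd1 stood at 549, 606, 585, 394 and 521 CPM in time order. The 16 h library was the lowest, with a log2 ratio to fed of -0.48, and no library differed from fed by 2-fold. The other ratios were 0.14 at 4 h (-0.047 with 2 to 15% mitochondrial UMIs), 0.092 at 8 h and -0.076 at 24 h (0.033 with TMM).

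Hspe1 stood at 650, 463, 303, 278 and 430 CPM. The fed library was highest, and 8 h and 16 h were called lower, with log2 ratios of -1.10 and -1.23, the former -0.93 with TMM. At 4 h the log2 ratio was -0.49, but 0.17 in hepatocytes with 2 to 15% mitochondrial UMIs, and at 24 h it was -0.60 and -0.15. The pair did not move alike: at 8 h Hspd1 was 1.07 times the fed level and Hspe1 was 2.15-fold below it. RefSeq lists 23 pseudogenes named for Hspd1 and 7 for Hspe1, and reads of a copy could be shared with these genes or lost.

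Hspe1 differed with the depth of the cell. In the fed library it stood at 794, 532 and 684 CPM in the cells with the fewest, middle and most nuclear UMIs, at 4 h at 852, 349 and 482 CPM and at 24 h at 856, 337 and 405 CPM. At 8 h the values were 262, 293 and 319 CPM and at 16 h 236, 284 and 289 CPM. The cells with the fewest UMIs were thus the highest in the fed, 4 h and 24 h libraries and the lowest at 8 h and 16 h. In the middle part the order fed, then 4 h and 24 h, then 8 h and 16 h held.

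**Figure D3:**
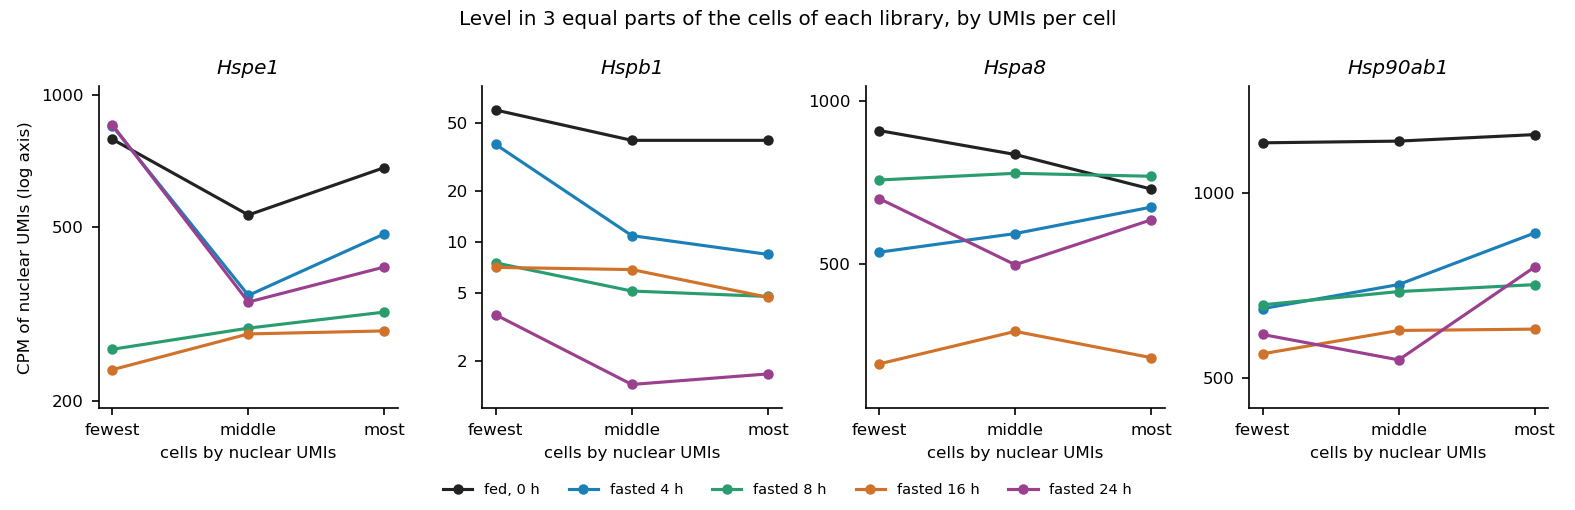
CPM (log axis) of Hspe1, Hspb1, Hspa8 and Hsp90ab1 in 3 equal parts of the hepatocytes of each library, by nuclear UMIs per cell. Hspe1 reaches 852 and 856 CPM in the cells with the fewest UMIs at 4 and 24 h, while the fed library stays highest for Hspb1 and Hsp90ab1 in every part.

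Hepatocytes differ along the lobule from the portal vein to the central vein, and were ranked here by the portal gene Cyp2f2 against the central gene Cyp2e1 and cut into 3 equal parts per library, named portal, middle and central. These are parts of a score, not positions in tissue. A gene was called at 1.5-fold or more between the portal and the central part with at least 50 CPM in either. Of the 7, 6, 5, 5 and 5 members that could be tested at 0, 4, 8, 16 and 24 h, 1 was called at 4 h (Hsp90aa1) and 1 at 24 h (Hspe1), both higher in the central part. Over all genes 4.46, 6.68, 3.41, 5.8 and 17.2% were called higher in the central part and 1.63, 4.07, 1.48, 2.57 and 7.97% in the portal part. The median log2 ratio of portal to central was -0.064, -0.29, -0.22, -0.079 and -0.14 for the members and -0.060, -0.061, -0.051, -0.098 and 0.13 for all genes.

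**Figure D4:**
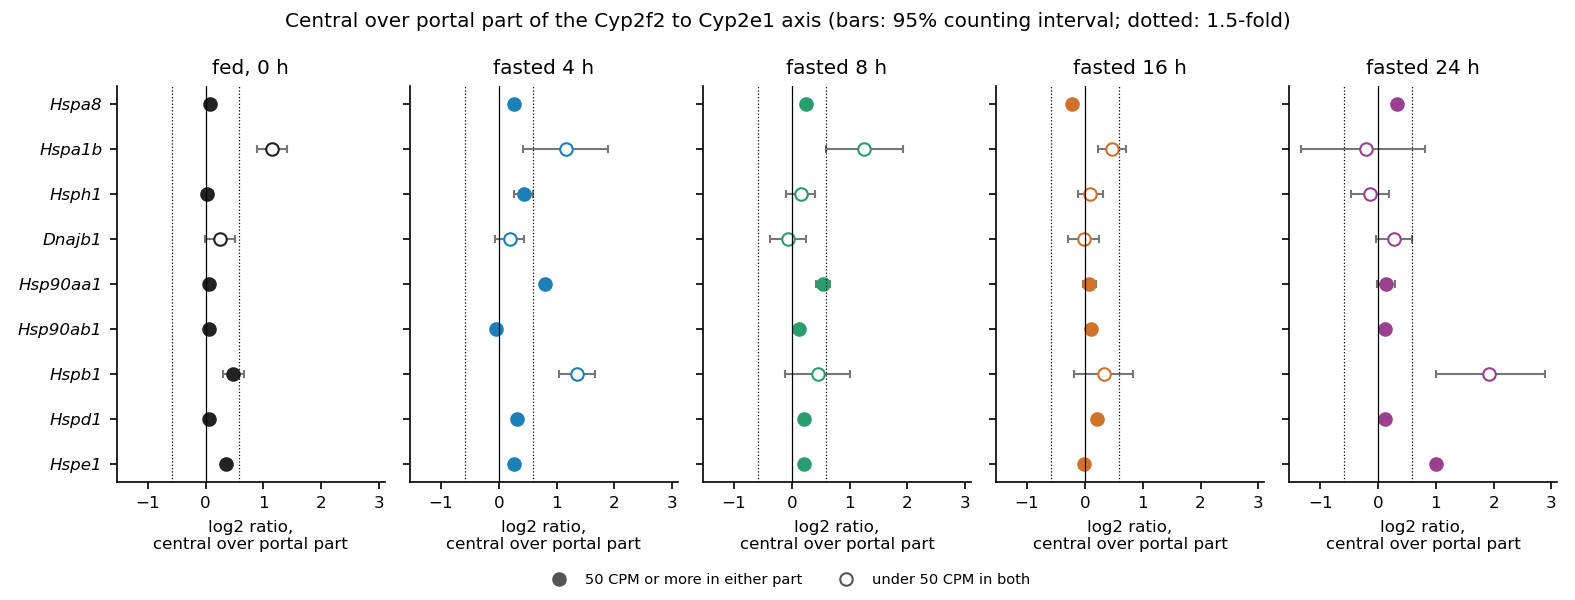
Log2 ratio of the central to the portal part of the axis in each library for 9 of the genes (Hspa1a, with too few UMIs, is left out), with 95% counting intervals as bars. Filled points have 50 CPM or more in either part and dotted lines mark 1.5-fold. Most filled points lie inside 1.5-fold, and Hsp90aa1 at 4 h and Hspe1 at 24 h lie beyond it.

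Hsp90aa1 stood at 296, 183 and 170 CPM in the central, middle and portal parts at 4 h, and at 126, 87.5 and 86.5 CPM at 8 h. In the fed library the parts stood close together, at 508, 505 and 490 CPM. At 4 h the log2 ratio of portal to central was -0.80 (-0.87 to -0.73), -0.79 when the axis was drawn from landmark gene lists, and -0.52, under the call, in hepatocytes with 2 to 15% mitochondrial UMIs. From the fed to the 4 h library the difference was thus smallest in the central part. The central part at 4 h had a median of 3081 UMIs against 18952 in the portal part, and by depth Hsp90aa1 stood at 253, 221 and 186 CPM in the cells with the fewest, middle and most nuclear UMIs of that library. The part of depth in the difference was not tested.

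Hspe1 stood at 671, 406 and 333 CPM in the central, middle and portal parts at 24 h, a log2 ratio of portal to central of -1.01 (-1.07 to -0.95). It was -0.64 in cells with at least 3000 UMIs and -0.53, under the call, with the landmark axis. The central part at 24 h had a median of 3016 UMIs and 11.2% mitochondrial UMIs, against 11148 and 18.4% in the portal part, and the contribution of that difference was not tested.

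Hspb1 and Hspa1b were under 50 CPM except for Hspb1 in the central part of the fed library. Hspb1 stood at 54.5 CPM there against 39.1 in the portal part, at 19.7 against 7.72 CPM at 4 h, and at 4.21 against 1.12 CPM at 24 h. Its intervals held 0 at 8 h, with 6.32 against 4.63 CPM, and at 16 h, with 7.10 against 5.68 CPM. The log2 ratio of portal to central was -0.48 in the fed library, but -0.11 in cells with at least 3000 UMIs and -1.15 without a lower mitochondrial limit. It was -1.35 at 4 h, but -0.70 in cells with at least 3000 UMIs and -2.23 with cells weighted equally, and -1.92 at 24 h, and -0.83 with the landmark axis. Hspa1b stood at 35.7 CPM in the central part of the fed library against 16.2 in the portal part, at 3.49 against 1.56 CPM at 4 h, at 6.32 against 2.66 at 8 h and at 30.8 against 22.2 at 16 h. For Hspa1b at 24 h (1.63 against 1.88 CPM) the interval held 0, and the direction turned with 5 parts of the axis, with the landmark axis and with 2 to 15% mitochondrial UMIs. At the other times the central part stood higher for Hspa1b. At 4 h its log2 ratio was -1.16 (-1.90 to -0.42), on 34 central and 33 portal UMIs, and -0.56 with cells weighted equally. The sum of the immediate-early genes was lower in the central than in the portal part of all 5 libraries, with 597 against 774 CPM in the fed library, 454 against 781 at 4 h, 398 against 486 at 8 h, 775 against 1068 at 16 h and 334 against 457 at 24 h. The central part had a median of 2994 UMIs in the fed library and 3081 at 4 h, against 5707 and 18952 in the portal part.

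Other chaperone genes were counted by list in the same way, for those with 50 CPM or more in either library. Over all genes tested, 5.91, 11.7, 4.08 and 10.6% were called lower in time order, and 5.81, 7.97, 3.34 and 6.72% higher. All 12 chaperones of the endoplasmic reticulum could be tested: 7, 10, 9 and 12 were called lower in time order, and 0 higher. Their median log2 ratio was -1.76, -2.37, -1.55 and -2.20, further from 0 than that of the heat shock genes at each time. Hspa5 (BiP), the HSP70 of that compartment, stood at 3278, 689, 348, 766 and 332 CPM. Pdia4, a disulfide isomerase, stood at 940, 117, 57.3, 299 and 68.7 CPM. Hyou1, the HSP110 of the endoplasmic reticulum, stood at 329, 64.8, 36.7, 94.3 and 20.9 CPM. Sdf2l1 and Creld2, cofactors of that compartment, stood at 148 and 196 CPM in the fed library and at 6.45 and 7.92 CPM at 24 h. These 5 genes, like 7 of the 10 heat shock genes, were highest in the fed library, and both sets are compared with that same library.

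HSP90 cochaperones steer clients to HSP90 or pace its cycle. Of these, 2 of 7, 3 of 7, 3 of 5 and 5 of 7 were called lower in time order. Over all genes tested the share called lower was 5.91, 11.7, 4.08 and 10.6%. Stip1, the adaptor between HSP70 and HSP90, stood at 92.0, 42.2, 37.6, 29.2 and 23.5 CPM, Chordc1 at 81.6, 23.0, 22.0, 32.2 and 21.0 CPM, and Fkbp4, an immunophilin of steroid receptor complexes, at 198, 141, 112, 62.0 and 88.8 CPM. Fkbp5, an immunophilin that glucocorticoids induce, was the exception: it stood at 22.1, 134, 288, 37.7 and 122 CPM and was called higher at 4, 8 and 24 h. Its lowest fasted level was thus at 16 h, the hour at which Hspa1b was highest.

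Among J-domain proteins 0 of 5, 1 of 5, 0 of 6 and 2 of 5 were called lower and 0 higher. With 5.91, 11.7, 4.08 and 10.6% of all genes called lower, counts of 0 or 1 in so short a list are not read as a difference. Dnaja1 stood at 459, 237, 174, 251 and 224 CPM, Dnajb2 at 52.4 CPM in the fed library and 23.2 CPM at 24 h, Dnajb6 between 121 and 174 CPM, and Dnajb4 was highest at 16 h (67.2 CPM, against 45.3 in the fed library). Of 3 other HSP70 and HSP110 genes, 1, 2, 1 and 2 were called lower: Hspa13 stood at 105, 41.8, 25.9, 52.4 and 19.4 CPM and Hspa4l at 61.8, 36.5, 22.7, 22.7 and 17.9 CPM, while Hspa4 stayed between 57.3 and 76.0 CPM. Of the HSP70 cofactors, Bag1, a nucleotide exchange factor, was called higher at 8 h and stood at 95.5, 181, 193, 72.2 and 182 CPM.

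The CCT chaperonin folds actin and tubulin in the cytosol. At 24 h 1 of its 8 genes was called lower (Cct3, 99.9 CPM in the fed library and 39.5 at 24 h), where 10.6% of all genes were. At 4, 8 and 16 h 0 were called lower, where 5.91, 11.7 and 4.08% of all genes were. Mitochondrial chaperones and proteases had 0 called lower at any time. Clpx, the unfoldase of a matrix protease, was called higher at 4 h and 8 h and stood at 96.4, 331, 411, 151 and 127 CPM. Dnaja3, a J-domain protein of the matrix, was highest at 8 h (150 CPM, against 77.7 in the fed library). Hspa9, the mitochondrial HSP70, stayed between 437 and 569 CPM. Hsbp1, a binding partner of HSF1, stood at 90.2, 95.9, 95.9, 87.3 and 96.5 CPM and was the 1 of 3 genes of the HSF list with 50 CPM or more. Rbm3, a cold-inducible RNA-binding protein, stood at 63.1, 75.0, 36.0, 67.9 and 97.8 CPM, and Cirbp stayed under 50 CPM. Of the 7 other small heat shock genes, Hspb8 could be tested and stood at 90.6, 85.8, 94.2, 52.9 and 64.5 CPM.

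**Figure D5:**
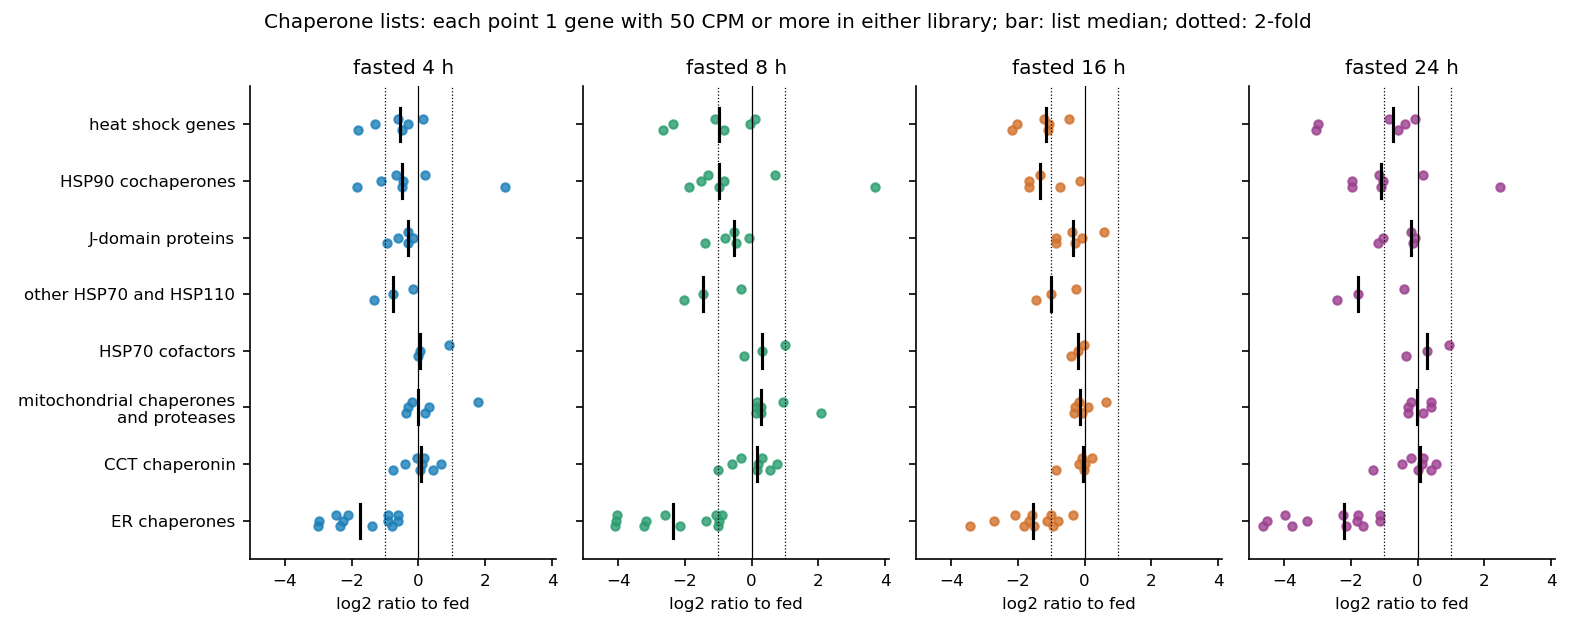
Log2 ratio to the fed library for the heat shock genes and 7 other chaperone lists at each fasting time, 1 point per gene with 50 CPM or more in either library, with the list median as a bar and 2-fold as dotted lines. All 12 genes of the endoplasmic reticulum lie below 0 in each panel, while the medians of the CCT and mitochondrial lists lie between -0.13 and 0.28.

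Clock genes were read beside these values because the libraries differ in hour. Dbp, an output gene of the clock, stood at 55.3, 6.18, 1.89, 79.8 and 62.8 CPM, Nr1d1 at 13.9, 3.25, 3.22, 125 and 8.72 CPM, Per2 at 57.9, 9.03, 1.60, 9.41 and 17.9 CPM, and Nr1d2 at 68.2, 39.0, 18.5, 102 and 71.8 CPM. Between fed and 24 h, the same hour, 1 of 5 clock genes tested was called lower (Per2) and 0 higher, while 10.6% of all genes were called lower. At the same pair of libraries Hsp90aa1 and Hsph1 were called lower, Hspb1 and Hspa1b stood 23.5-fold and 13.4-fold lower, Hspa1a had a log2 ratio of -2.66 on 3 UMIs (-5.06 to -0.90), and Hspa8, Hspd1, Hspe1, Hsp90ab1 and Dnajb1 were within 2-fold. Dbp and Nr1d2 were, like Hspa1b, high in the fed and 16 h libraries and low at 4 and 8 h. Nr1d1 was high at 16 h only, and Per2 in the fed library only. At 24 h Dbp and Nr1d2 stood near their fed level, Nr1d1 and Per2 stood below it, and Hspa1b was at its lowest. The part of clock hour in these levels was not tested.

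Genes most like a member in pattern were sought among the 2681 genes whose mean over the 5 libraries was at least 50 CPM, by the root mean square difference of their centred log2 CPM profiles, over 5 points only. Nearest to Hspa8 were Tedc2, Uqcr11, Erp29, Mrps21 and Agpat2 (0.090 to 0.11, where the median gene had 0.50). Nearest to Hspd1 were Fam214a, Ankrd40, Saraf, Sem1 and Atp5e (0.058 to 0.062, median 0.36). Nearest to the sum of Hspa1a and Hspa1b were Mup7, Mup14, Klf10, Snhg9 and Mup9 (0.40 to 0.60, with 1.43 for the median gene). Mup7, the first of them, stood at 2539, 651, 917, 3471 and 609 CPM. Major urinary protein genes are near-identical copies among which reads can be split.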

How the data were processed

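The deposited matrix holds UMI counts of 32285 genes in 50000 barcodes, 10000 per library, made by the authors with Cell Ranger 6.0.1 on mm10, per the submitters' processing notes and the file header. Sources used here do not state whether reads in introns were counted, whether barcodes were subsampled or how reads mapping to several genes were treated. The other deposited files hold gene symbols, barcodes and the authors' library of each barcode, with no score or level, and 0 columns were left unused.

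Barcodes were kept at 1000 or more UMIs, 500 or more genes and a mitochondrial share of 2 to 30%, less those in which at least 3 genes of 1 marker list of another cell type (endothelial, Kupffer, stellate, cholangiocyte, lymphocyte, neutrophil, erythroid) made up 1% or more of nuclear UMIs. This removed 94, 6, 11, 38 and 17 barcodes at 0, 4, 8, 16 and 24 h. No doublet caller was run, and barcodes over 3 times the median UMI count were left out as an alternative. Counts were summed per library and divided by the sum of nuclear-encoded UMIs (CPM). 3′ UMIs are not divided by transcript length. Levels carry exact Poisson intervals, ratios exact conditional binomial intervals and shares Clopper-Pearson intervals, all at 95% and for counting error only. With 1 library per time no test between groups exists. For shares, cells were thinned to 1000 nuclear UMIs, which left out 0, 4, 25, 118 and 0 hepatocytes. The lobular score was log2 of Cyp2f2 over Cyp2e1 per 10000 UMIs with a pseudocount of 1. Likeness used log2(CPM + 1). Of each other list, up to 4 genes with the largest difference from fed and at least 50 CPM in either library were to be named; Hspa5, Hspa9 and Cirbp fall outside that rule and were named after their values were seen. The 10 genes and all lists were chosen with earlier results of these data known. Gene positions are from GENCODE M21 (GRCm38), which held 32235 of the 32285 IDs (99.8%).

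Alternatives were other limits on mitochondrial share, UMIs and other cell types, other denominators, weighting cells equally, TMM (edgeR 4.0.16, used for scaling only) and median-of-ratios scaling, other thresholds and other axes. Software was Python 3.11.15 (pandas 2.3.3, scipy 1.17.1, numpy 2.4.6, matplotlib 3.10.9) and R 4.3.3. Only the ratios and calls were tested on simulated data, drawn from the Poisson model that the intervals assume. The cell filters, lobular score, thinned shares, likeness and repeat search were not tested in this way.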

Additional observations from a re-analysis of the deposited data

Results flagged for a closer look

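Barcodes with under 2% mitochondrial UMIs, which the hepatocyte rule leaves out, held some heat shock transcripts at 2-fold or more of the level in the hepatocytes of the same library, with at least 50 CPM in either. Hspe1 did so in all 5 libraries, with 2519, 1547, 782, 963 and 1349 CPM in time order. Hspa8 stood at 1894 CPM in the fed library and 851 at 16 h, and Hspb1 at 127 CPM in the fed library and 76.8 at 4 h. Hspb1 was past 2-fold in the other 3 libraries too, but under 50 CPM, at 14.4 (8 h), 30.5 (16 h) and 6.37 CPM (24 h). These barcodes had median UMI counts of 1660, 1831, 1642, 1144 and 2640 in time order. They held the hepatocyte transcript Alb at 19549, 11835, 15526, 31110 and 11947 CPM, below the 50364 to 82852 CPM of the hepatocytes, and the haemoglobin transcript Hbb-bs at 205 CPM in the fed library, 0.177 CPM (2 UMIs) at 4 h, 0 at 8 h and 16 h and 2121 CPM at 24 h. What these barcodes are was not tested.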

How the results depend on the processing

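No paired analysis was possible because each time is 1 library and no replicate numbers exist. Over 90 log2 ratios and 1214 values under alternatives, 945 moved by less than the counting interval and 269 by more. Another CPM minimum or fold for the call cannot move a ratio, so that those values are among the 945 by design. Of the ratios past the call 0 changed sign, but these started 1.5-fold or more from 0. Other ratios did change sign. With 2 to 15% mitochondrial UMIs, Hspe1 at 4 h went from -0.49 to 0.17 and Hspa1b at 16 h from 0.17 to -0.24. The portal to central ratio of Hsph1 in the fed library changed sign under 6 of 14 alternatives. Of 244 values of 18 counts, 229 stayed within 1.5 times the value reported. An unchanged count can hold another gene. With 2 to 15% mitochondrial UMIs the number higher in the central part at 4 h was still 1, but Hsp90aa1 was under the call. In that setting 17.1% of all genes were called higher in the central part and 24.8% in the portal part.

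With a minimum of 10 CPM the number of genes at least 2-fold lower than fed was 4 (4 h), 5 (8 h), 6 (16 h) and 4 (24 h), since Hspb1 and, except at 16 h, Hspa1b are then called, and over all genes 5.90% (4 h), 11.1% (8 h), 3.52% (16 h) and 8.63% (24 h) were lower, of 7270 to 7366 tested. With a call at 1.5-fold it was 4 at 24 h, where 20.3% of all genes were lower. Under TMM or median-of-ratios scaling it was 2 at 8 h, where 8.58% or 8.61% of all genes were lower. The number higher in the central part without a lower mitochondrial limit was 3 in the fed library, then 2 (4 h), 1 (8 h) and 2 (24 h), beside 20.4, 19.2, 9.42 and 30.3% of all genes. With cells weighted equally it was 2 in the fed library and 2 at 4 h (14.2 and 16.6% of all genes), with a minimum of 10 CPM 1 and 2 (4.17 and 5.03%). With 5 parts it was 1 in the fed library and 1 at 8 h (8.23 and 5.99%), and with the landmark axis 0 at 24 h (5.56%). Except for the entry of genes under another minimum or fold, the cause was not tested.

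Of single ratios, Hspb1 at 4 h was -1.07 without the lower mitochondrial limit and -1.29 with cells weighted equally, and at 24 h -3.93 without that limit. Hspa1a at 8 h was 0.046 with cells weighted equally. Depth limits Hspa1a most, with 3 to 58 UMIs per library.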
